A study of Mus musculus with 6 samples.

Results

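Testicans, syndecans and glypicans are 3 families of proteoglycan core proteins, that is, proteins that carry long sulfated sugar chains. The 10 genes described here are the testican genes Spock1, Spock2 and Spock3, the syndecan genes Sdc1, Sdc2, Sdc3 and Sdc4, and the glypican genes Gpc1, Gpc3 and Gpc6. They were chosen by gene symbol, with their levels in these libraries and their differences between mutant and control libraries already known. All 10 were found among the 22287 genes of the deposited count table. Their differences between the genotypes are therefore given as a description, with no p-value, and nothing is read from how many of them differed.

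RNA came from the apical end of the lower first molar, where the root forms, of C57BL/6 mouse pups at postnatal day 7.5. The mutant group was Gli1-CreER;Arid1a fl/fl (3 libraries, replicates 3, 4 and 5) and the control group was Arid1a fl/fl (3 libraries, replicates 2, 3 and 5). Every pup of either group carried loxP-flanked Arid1a alleles and received tamoxifen (1.5 mg for each 10 g of weight) on day 3.5, and Gli1-CreER was present in the mutants alone, so its own effects and those of Arid1a loss cannot be told apart. Gli1-CreER is a tamoxifen-inducible recombinase expressed where Gli1, a target of Hedgehog signalling, is active, so deletion is directed to those cells while the tissue sampled also holds others. The labels do not say whether a library came from 1 pup or from pooled teeth, so the spread between libraries may be partly technical.

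Syndecans span the cell membrane and glypicans are tied to its outer face by a lipid anchor. Their heparan sulfate chains bind growth factors and morphogens, among them fibroblast growth factors, Wnt proteins and Hedgehog ligands, and hold them near their receptors. Testicans are secreted, calcium-binding relatives of the matrix protein SPARC that carry chondroitin and heparan sulfate and are best known from brain. In the developing mouse tooth, syndecan-1 is known from dental epithelium and from the condensed dental mesenchyme.

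The libraries held 20453247 to 24255352 estimated gene counts, and 17305 genes were tested. Levels are given as CPM, counts scaled to a common library size after TMM adjustment. Arid1a, the targeted gene, stood at 120, 134 and 130 CPM in mutant replicates 3, 4 and 5, against 210, 202 and 204 CPM in control replicates 2, 3 and 5. Its log2 fold change was -0.68 (SE 0.07), and edgeR's quasi-likelihood test gave an adjusted p of 0.0129, with 0.0506 without control replicate 2, 0.0529 without control replicate 3 and 0.0769 with the replicate number as a block. Over all genes tested, 1.86% were called at an adjusted p under 0.05, 0.659% as higher and 1.2% as lower in mutants, and 21.3% had groups that did not overlap. Tooth markers were abundant in both groups. The 3 ameloblast genes Amelx, Ambn and Enam summed to 66726 to 111396 CPM in mutants, against 176920 to 275578 CPM in controls. The 5 epithelial genes summed to 1443 to 2530 CPM in mutants, against 1941 to 2426 CPM in controls.

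The genomic stretches just upstream of the transcription start are shown for Spock1, whose level differed most clearly between the groups, and for Spock2, the testican with the highest level per length, whose groups overlapped. The sequences are from RefSeq on GRCm38.p6, read 5′ to 3′ on the strand of the gene, and stop before any annotated start of the gene. The Spock1 stretch is on the minus strand at chr13:57908333-57908582 and the Spock2 stretch is on the plus strand at chr10:60106007-60106218. Capitals mark the letters GGGCGG (GC box) or CAGGGGGCG (the core of the CTCF motif, chosen after the sequence was read) on either strand.
Spock1: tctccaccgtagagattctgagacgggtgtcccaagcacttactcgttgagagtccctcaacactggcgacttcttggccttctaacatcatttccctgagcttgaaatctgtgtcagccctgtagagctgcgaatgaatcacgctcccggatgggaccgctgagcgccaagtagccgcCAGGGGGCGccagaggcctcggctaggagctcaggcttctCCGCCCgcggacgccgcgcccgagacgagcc
Spock2: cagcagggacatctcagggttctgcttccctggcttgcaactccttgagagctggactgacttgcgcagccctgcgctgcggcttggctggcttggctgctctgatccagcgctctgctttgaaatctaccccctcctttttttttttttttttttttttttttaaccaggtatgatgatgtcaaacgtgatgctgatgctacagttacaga

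The Spock1 stretch held 1 GC box and 1 match to the CTCF core, which do not overlap. The Spock2 stretch held neither. These letters were not particular to Spock1. Over the 250 bases before the start, Sdc1 and the glypican gene Gpc2 each held 3 GC boxes and 1 CTCF core. In both genes the groups overlapped. GC boxes also lay before Sdc3, Sdc4 and Gpc3. Of the 32851 RefSeq promoters read over the same 250 bases before the start, 32.7% held a GC box and 1.49% held the CTCF core, on either strand. The letters GACCACCCA, a GLI motif, occurred in 0.225% of them and TATAAA in 12.4%, and neither was found before Spock1 or Spock2. A match describes these letters and is not evidence of a bound factor. Of the 10 genes, 7 had a RefSeq promoter entry.

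Among the testicans, Spock1 and Spock3 were higher in every mutant library than in any control library, and Spock2 was not. Spock1 encodes testican-1, whose human protein inhibits cathepsin L and the activation of MMP2 by membrane-type metalloproteases. It stood at 29.5, 40.8 and 31.8 CPM in mutant replicates 3, 4 and 5, against 13.1, 12.1 and 12.7 CPM in control replicates 2, 3 and 5. The lowest mutant library was thus well above the highest control library, and the controls lay close together. Spock1 averaged 34.0 ± 5.94 CPM in mutants and 12.6 ± 0.510 CPM in controls (SD, n = 3 each). Its log2 fold change was 1.43 (SE 0.13), a 2.69-fold higher level, and ranged from 1.28 without mutant replicate 4 to 1.52 without mutant replicate 3. The gene is protein-coding and spans 487 kb on the minus strand of chromosome 13 of mm10, from 57421195 to 57908332. The 5 dental mesenchyme markers Msx1, Pax9, Prrx1, Lhx6 and Lhx8 summed to 301 to 328 CPM in mutants, against 224 to 253 in controls. Lhx6 overlapped between the groups, at 31.6, 39.8 and 42.6 CPM in mutants, against 34.4, 30.9 and 34.5 CPM in controls. Each of the others was higher in every mutant library than in any control library. The part of these 5 markers in the Spock1 level, and in that of Sdc2 below, was not tested.

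Spock3 encodes testican-3, whose human protein also inhibits membrane-type metalloproteases, and it was near the limit of detection. Its rounded counts were 16, 26 and 40 in mutant replicates 3, 4 and 5, against 4, 6 and 1 in control replicates 2, 3 and 5. In CPM these were 0.618, 1.13 and 1.76 in mutants, against 0.195, 0.281 and 0.0544 in controls. The groups did not overlap, but the mutant libraries differed among themselves by more than the lowest of them differed from the highest control. Summed over the libraries there were 82 counts in mutants and 11 in controls, a ratio of rates of 6.27 with an exact 95% interval of 3.33 to 13.0 that covers counting error alone. The fitted log2 fold change was 2.64 (SE 0.59), and it was 0.83 on the log2(value + 1) scale of the authors' normalized table, which shrinks differences of low genes.

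Spock2 encodes testican-2, whose human protein counteracts the metalloprotease inhibition by the other testicans. It stood at 113, 84.8 and 91.1 CPM in mutants, against 85.0, 79.96 and 94.2 CPM in controls. The groups overlapped, with mutant replicate 3 the highest of the 6 libraries. The log2 fold change was 0.16 (SE 0.12), and 0.03 without mutant replicate 3. Of the 4 neuronal markers Tubb3, Snap25, Elavl3 and Syt1, Elavl3 was under 1 CPM in all libraries, and their summed level was 55.1 to 59.2 CPM in mutants, against 45.2 to 50.8 CPM in controls. The mean log2(CPM + 1) of this list did not overlap between the groups (exact two-sided permutation p = 0.1, the smallest that 3 against 3 can give). The ameloblast, dental mesenchyme, endothelial, Schwann cell and macrophage marker lists gave the same p, and the other marker lists gave 0.2 to 0.9. Most of the neuronal sum was Tubb3, which overlapped between the groups, as did Snap25 and Elavl3. Syt1 did not overlap, with means of 2.09 CPM in mutants and 1.09 CPM in controls. The part of the neuronal markers in the testican levels was not tested.

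**Figure D1:**
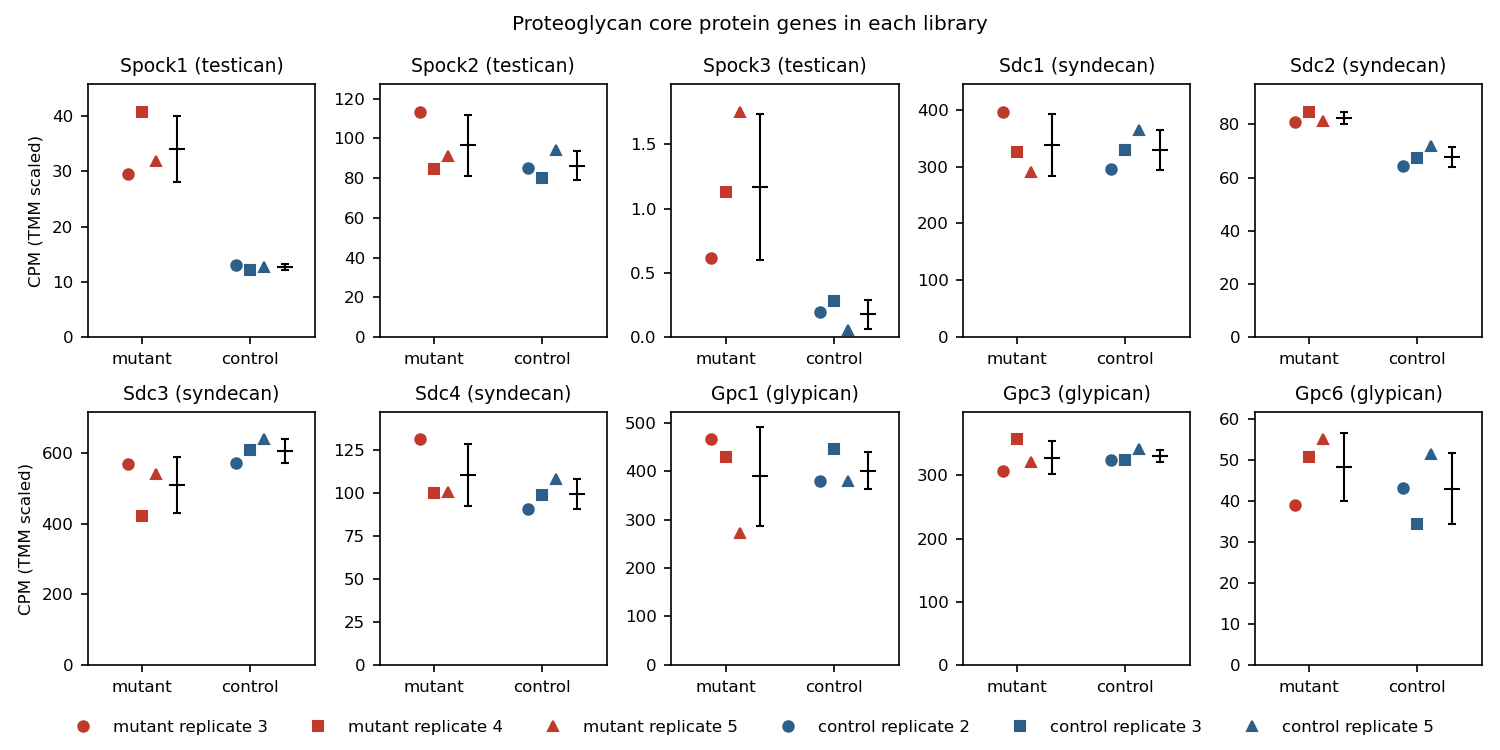
Level of each of the 10 genes in CPM (y axis, from 0, 1 panel per gene) in the 3 mutant libraries and the 3 control libraries, with symbols for single libraries and a bar for the mean ± SD. Spock1 at 29.5 to 40.8 CPM in mutants lies above its 12.1 to 13.1 CPM in controls, Spock3 and Sdc2 are also higher without overlap, Sdc3 is lower without overlap, and the other 6 genes overlap.

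Syndecan genes differed far less than Spock1, and not in a common direction. Sdc2, a syndecan of mesenchymal cells, stood at 81.0, 84.8 and 81.1 CPM in mutants, against 64.3, 67.2 and 71.8 CPM in controls. Each mutant library was above each control library, and the spread within a group was small. The means were 82.3 ± 2.16 CPM in mutants and 67.8 ± 3.795 CPM in controls (SD, n = 3 each), a log2 fold change of 0.28 (SE 0.07). It kept this sign in each fit tried, from 0.22 with the replicate block to 0.49 with library totals alone.

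Sdc3, a syndecan best known from nervous tissue, was the only syndecan gene with a negative difference. It stood at 570, 421 and 542 CPM in mutants, against 573, 608 and 639 CPM in controls. The groups did not overlap, but mutant replicate 3 came within a few CPM of control replicate 2. The log2 fold change was -0.25 (SE 0.12), and it was -0.13 without mutant replicate 4, the lowest library, and -0.04 with library totals alone.

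Sdc1 and Sdc4 overlapped between the groups. Sdc1, the main syndecan of epithelia, stood at 397, 326 and 291 CPM in mutants, against 295, 329 and 364 CPM in controls. Sdc4, which takes part in focal adhesions, stood at 131, 99.5 and 100.1 CPM in mutants, against 90.7, 98.4 and 108 CPM in controls. For both genes mutant replicate 3 was the highest of all libraries. The log2 fold change of Sdc1 was 0.04 (SE 0.13), and -0.09 without mutant replicate 3, and it also turned negative without control replicate 2. That of Sdc4 was 0.15 (SE 0.12), and 0.01 without mutant replicate 3. The summed epithelial markers, mostly Krt5 and Krt14, were highest in mutant replicate 3, at 2530 CPM. Their mean log2(CPM + 1) was instead highest in control replicate 3, at 7.98, against 7.97 in mutant replicate 3. The sum was lowest in mutant replicate 5, at 1443 CPM, as was Sdc1. Of the single markers, Krt14 and Epcam were highest in mutant replicate 3. Krt5, Cdh1 and Trp63 were highest in control replicate 5. The part of the epithelial markers in the Sdc1 and Sdc4 levels was not tested.

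The make-up of the syndecan family restates these small differences as shares. Shares were taken per library from CPM per kilobase of merged exons, so they do not depend on how libraries are scaled. Sdc3 made up 34.8, 32.1 and 39.5% of the summed syndecan level in mutants, against 42.2, 41.3 and 40.3% in controls. Sdc4 made up 18.8, 17.8 and 17.2% in mutants, against 15.7, 15.7 and 16.0% in controls. Sdc2 made up 8.39, 10.97 and 10.0% in mutants, against 8.03, 7.76 and 7.67% in controls. None of these 3 shares overlapped between the groups, while the share of Sdc1 did, at 33.3 to 39.1% in mutants and 34.1 to 36.1% in controls. The shares of a library add up to a whole, so a lower Sdc3 share raises the others. The 3 shares are thus not separate observations, and in CPM Sdc4 overlapped between the groups. How often shares in other gene families fail to overlap was not computed. Spock1 made up 14.6, 23.9 and 18.5% of the summed testican level in mutants, against 9.23, 9.06 and 8.21% in controls. Spock2 was the main testican transcript per length, at 75.2 to 85.0% in mutants and 90.6 to 91.7% in controls.

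**Figure D2:**
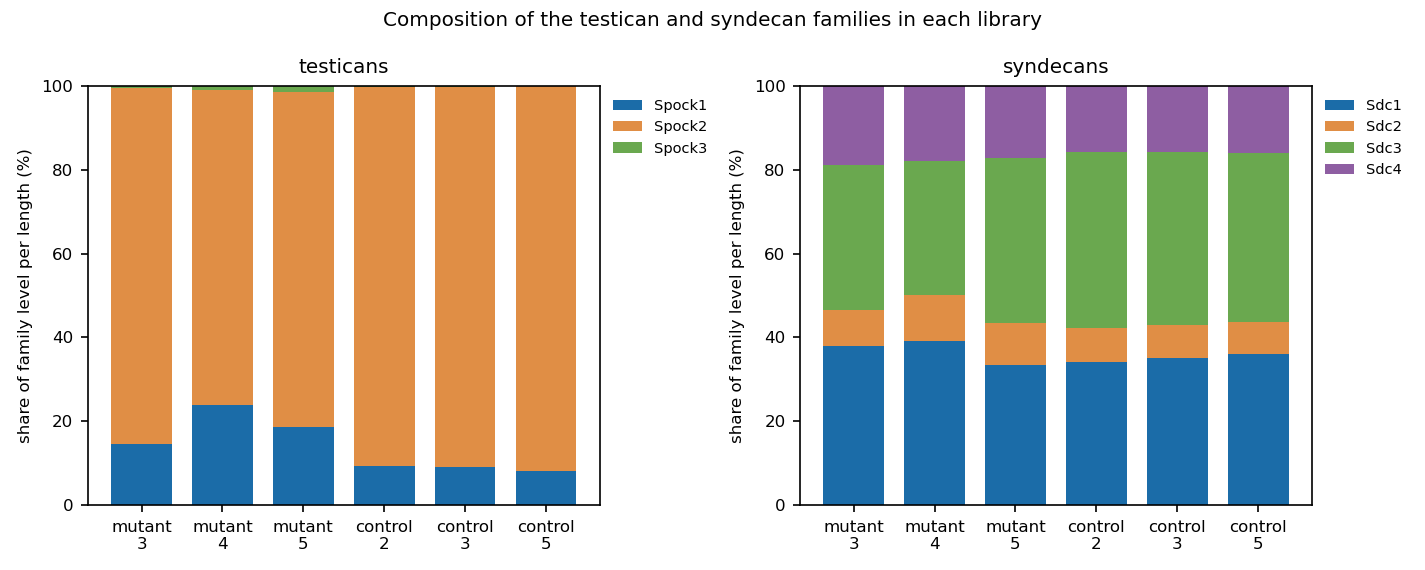
Share of each gene in the summed level per length of its family (y axis, percent) in each library, with testicans on the left and syndecans on the right and mutant libraries before control libraries. The Spock1 share is 14.6 to 23.9% in mutants and 8.21 to 9.23% in controls, and the Sdc3 share is 32.1 to 39.5% in mutants and 40.3 to 42.2% in controls.

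The member glypicans overlapped between the groups. Gpc3, which in mouse binds Hedgehog ligands and restrains their signalling, was even across libraries, at 307, 357 and 321 CPM in mutants, against 324, 325 and 341 CPM in controls. Its log2 fold change was -0.01 (SE 0.08), with leave-one-out values from -0.07 to 0.04. Gpc1, a broadly expressed glypican, varied more, at 466, 430 and 273 CPM in mutants, against 379, 445 and 379 CPM in controls. Mutant replicate 5 was its lowest library, and also the lowest for the summed epithelial markers. Of the single markers, Epcam was lowest in control replicate 2, at 13.0 CPM, against 13.7 CPM in mutant replicate 5. The part of the epithelial markers in the Gpc1 level was not tested. The log2 fold change of Gpc1 was -0.04 (SE 0.19), and 0.16 without mutant replicate 5.

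Gpc6, which in mouse promotes Hedgehog signalling in growth plate cartilage, stood at 38.9, 50.6 and 55.0 CPM in mutants, against 43.1, 34.3 and 51.5 CPM in controls. The range of each group covered most of the other, and the log2 fold change was 0.17 (SE 0.17), with 0.03 without control replicate 3 and 0.32 without control replicate 5. With library totals alone in place of TMM, the median of all genes moved from 0.01 to 0.21 on the log2 scale. Under that scaling Gpc1 and Gpc3 had positive differences, of 0.15 and 0.19, and Gpc3 was at 0.01 with upper-quartile scaling, so no direction is given for either. The coefficient of variation was 26.3% in mutants and 9.49% in controls for Gpc1, and 7.91% in mutants and 2.94% in controls for Gpc3.

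**Figure D3:**
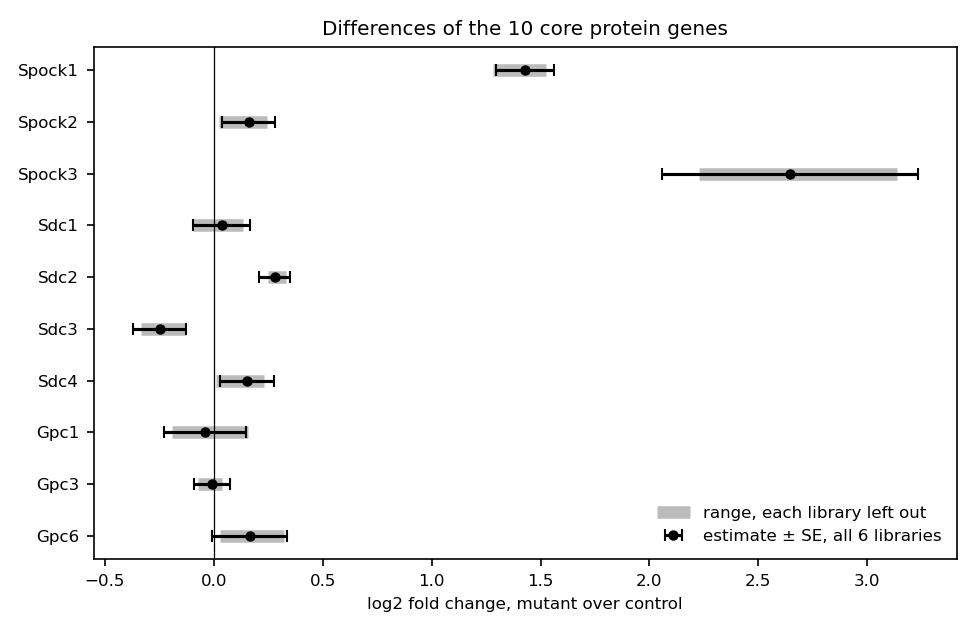
Log2 fold change of mutant over control for each of the 10 genes (x axis), with the estimate ± SE from all 6 libraries as a point with bars and the range over fits that leave out 1 library in grey. Spock1 at 1.43 and Spock3 at 2.64 stand apart to the right, and the other 8 genes lie between -0.25 and 0.28.

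Over the 10 genes and with TMM scaling, 7 had positive and 3 negative differences, with a median log2 fold change of 0.16 beside 0.01 for all genes tested. In the fit over all genes 1 of the 10, Spock1, was called, beside 1.86% of all genes, and 4 of the 10 had groups that did not overlap, beside 21.3%. With DESeq2 and with library totals alone 3 of the 10, Spock1, Spock3 and Sdc2, were called as higher, beside 365 and 411 of all 17305 genes. Because the genes were picked with these differences in view, nothing follows from these counts. None of the 10 was called without control replicate 2, where 1 gene was called as higher and 10 as lower in all. In bulk RNA, a change in the number of cells that express a gene and a change in RNA per cell cannot be told apart.

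Per length, the 3 families covered a wide range of levels. CPM per kilobase of merged exons in GENCODE M21 was used, which assumes reads spread over the whole transcript. In controls the order began with Gpc3 at 123 ± 3.61, Sdc3 at 101 ± 5.54, Sdc1 at 86.5 ± 9.09 and Gpc1 at 77.7 ± 7.37 CPM per kilobase (SD, n = 3). The ranges of Sdc1 and Gpc1 overlapped over the control libraries, while those of Gpc3 and Sdc3 did not. Those of Sdc3 and Sdc1 nearly met, at 95.68 for the lowest Sdc3 and 95.65 for the highest Sdc1 control library. The order of Sdc3 and Sdc1 is thus not firm in each library. In mutants Sdc1 averaged 88.7 ± 14.2, Sdc3 85.3 ± 13.2 and Gpc1 75.5 ± 19.8 CPM per kilobase (SD, n = 3), with ranges that overlapped, below Gpc3 at 122 ± 9.65. Sdc4 followed, at 43.3 ± 7.05 in mutants and 38.9 ± 3.43 in controls, then Sdc2 at 23.3 ± 0.612 in mutants and 19.2 ± 1.08 in controls and Spock2 at 17.4 ± 2.73 in mutants and 15.6 ± 1.30 in controls. Gpc6 stood at 7.497 ± 1.29 in mutants and 6.69 ± 1.34 in controls. Spock1 came after it, at 4.07 ± 0.710 in mutants and 1.51 ± 0.0610 in controls, and Spock3 was lowest, at 0.193 ± 0.0943 in mutants and 0.0292 ± 0.0189 in controls.

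**Figure D4:**
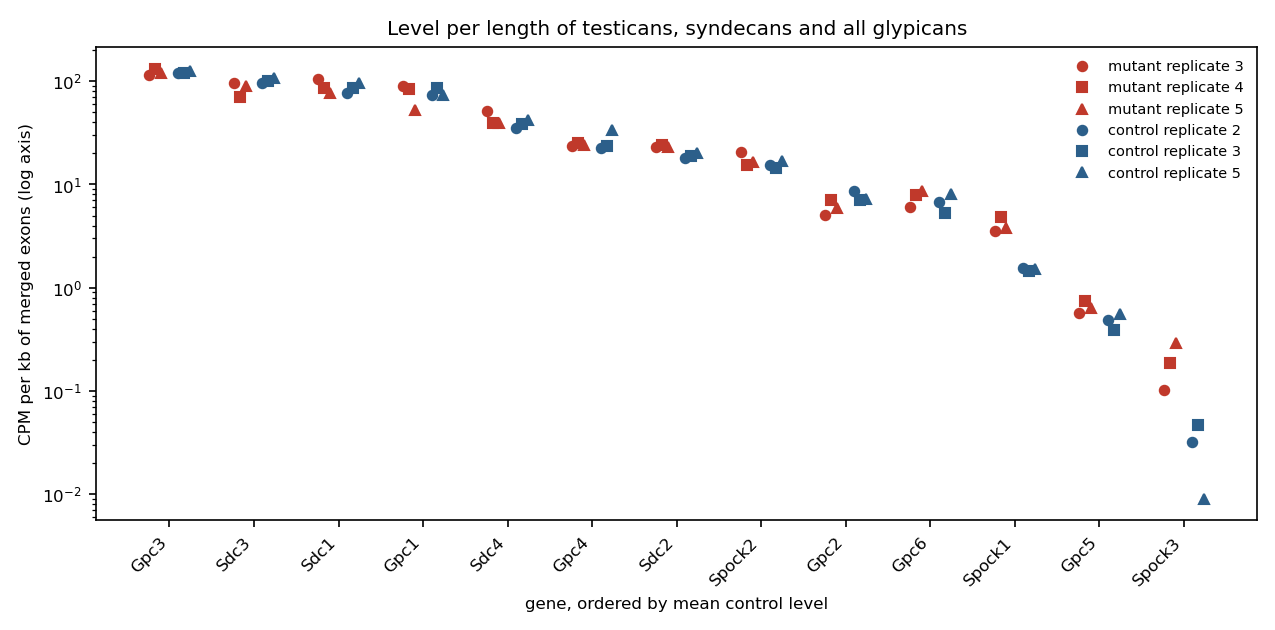
Level in CPM per kilobase of merged exons (y axis, log scale) of the 10 genes and of Gpc2, Gpc4 and Gpc5 in each library, ordered by the mean of the controls. Gpc3, Sdc3, Sdc1 and Gpc1 lie between 53.0 and 133, Spock1 lies between 3.53 and 4.87 in mutants and between 1.44 and 1.56 in controls, and Spock3 lies below 0.3.

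Of the remaining glypicans, Gpc4 and Gpc5 lie next to members in the genome. Gpc4 ends at 52165252 on chromosome X of mm10, upstream in coordinate of Gpc3, which runs from 52272426 to 52613950 on the same minus strand. Gpc5 ends at 116525179 on chromosome 14 and Gpc6 runs from 116925315 to 117976544, both on the plus strand. Gpc4 stood at 64.1 ± 2.37 CPM in mutants and 70.4 ± 16.1 in controls and did not pass (SD, n = 3 each, adjusted p = 0.735, edgeR quasi-likelihood test). Gpc5 was low, at 2.89 ± 0.379 CPM in mutants and 2.14 ± 0.388 in controls, and did not pass (SD, n = 3 each, edgeR adjusted p = 0.418). Gpc2 stood at 25.8 ± 4.52 CPM in mutants and 32.6 ± 3.88 in controls and did not pass either (SD, n = 3 each, edgeR adjusted p = 0.322), and it overlaps Gm43720 on the same strand, so their reads may be shared. Genes on the opposite strand that are in the count table overlapped Gpc1 (Gm29480 and Ankmy1) and Gpc3 (A630012P03Rik) and held at most 30 counts a library.

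Related genes that are not members were tested as 10 lists, which hold other core proteins, the SPARC relatives of the testicans, enzymes that build, modify or release the chains, proteases, cytoplasmic partners and ligands. Of 94 such genes 87 were tested, and 3 rose, all of them SPARC relatives or core proteins, and 5 fell, all of them enzymes, or 9.20% called beside 1.86% of all genes. Their median log2 fold change was 0.04, against 0.01 for all genes tested. The lists were made with earlier results of these data known. Nothing therefore follows from the share called or from the directions of the calls. Each call came from all 6 libraries, and none was called in more than 2 of the 6 fits that leave out 1 library.

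Among the relatives of the testicans, the SPARC family, 2 of 5 rose and 0 fell. Smoc1, a secreted calcium-binding matricellular protein, stood at 5.84, 5.77 and 5.62 CPM in mutants, against 2.09, 2.53 and 2.78 CPM in controls, without overlap (log2 fold change 1.22, SE 0.17, edgeR adjusted p = 0.0227). Smoc2, its paralog, stood at 107, 89.7 and 83.1 CPM in mutants, against 57.1, 51.9 and 65.9 CPM in controls, also without overlap (log2 fold change 0.68, SE 0.12, edgeR adjusted p = 0.0412). Smoc1 was called in 1 of the 6 leave-one-out fits, that without mutant replicate 3, with adjusted p from 0.0595 to 0.0950 in the others. Smoc2 was called in none of them, with adjusted p from 0.0613 to 0.154. The 4 follicle and periodontal ligament markers Postn, Aspn, Scx and Tnmd summed to 382 to 466 CPM in mutants, against 230 to 288 CPM in controls. Most of this sum was Postn, at 348, 409 and 348 CPM in mutants, against 218, 248 and 201 CPM in controls. Aspn, Scx and Tnmd overlapped between the groups. So did the mean log2(CPM + 1) of the list (exact two-sided permutation p = 0.3). The part of these 4 markers in the Smoc1 and Smoc2 levels, and that of the dental mesenchyme markers given above, was not tested. Sparc itself had a log2 fold change of 0.03 (SE 0.11, edgeR adjusted p = 0.933).

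Of 5 other proteoglycan genes that can carry heparan sulfate, 1 rose and 0 fell. The riser was Srgn, which encodes serglycin, the granule proteoglycan of blood and endothelial cells. It stood at 6.76, 5.90 and 5.66 CPM in mutants, against 2.63, 2.95 and 2.94 CPM in controls (log2 fold change 1.11, SE 0.16, edgeR adjusted p = 0.0227). The adjusted p was 0.0469 without mutant replicate 3 and between 0.0582 and 0.0993 without any other library. The 4 macrophage markers Cd68, Csf1r, C1qa and Adgre1 summed to 182 to 240 CPM in mutants, against 136 to 166 CPM in controls. The 4 endothelial markers Pecam1, Cdh5, Kdr and Tek summed to 229 to 242 CPM in mutants, against 197 to 229.9 CPM in controls. These endothelial sums overlapped between the groups, as did Pecam1, Cdh5 and Kdr, while Tek did not. The mean log2(CPM + 1) of the endothelial list did not overlap (exact two-sided permutation p = 0.1). The 4 erythroid markers Hba-a1, Hbb-bs, Alas2 and Slc4a1 summed to 1170 to 2702 CPM in mutants, against 696 to 969 CPM in controls. Most of this erythroid sum was Hbb-bs, and Slc4a1 overlapped between the groups. The mean log2(CPM + 1) of the erythroid list also overlapped (exact two-sided permutation p = 0.2). The part of these 3 lists in the Srgn level was not tested.

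Genes of chain synthesis fell or did not pass. Of 12 linkage and polymerisation genes, 0 rose and 1 fell, and of 21 sulfation and editing genes tested, 0 rose and 3 fell. Pxylp1 removes a phosphate from the xylose that joins the chain to the core protein. It stood at 67.2, 87.1 and 90.1 CPM in mutants, against 150, 137 and 158 CPM in controls (log2 fold change -0.86, SE 0.12, edgeR adjusted p = 0.0227). The groups were far apart relative to their spread, and the adjusted p was 0.0678 without mutant replicate 4 and 0.0710 to 0.0802 without any 1 control.

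The 3 sulfation and editing genes that fell act at different steps. Hpse encodes heparanase, which cuts heparan sulfate chains, and stood at 34.1, 34.6 and 28.6 CPM in mutants, against 46.4, 50.0 and 55.2 CPM in controls (log2 fold change -0.64, edgeR adjusted p = 0.0318). Papss2 makes the sulfate donor for the chains and stood at 86.2, 92.1 and 79.7 CPM in mutants, against 113, 129 and 134 CPM in controls (log2 fold change -0.54, edgeR adjusted p = 0.0344). Hs3st3b1, a sulfotransferase of heparan sulfate, stood at 31.8, 33.7 and 34.0 CPM in mutants, against 44.7, 47.0 and 45.4 CPM in controls (log2 fold change -0.46, edgeR adjusted p = 0.0264). None of the 3 overlapped between the groups. Papss2 passed in no leave-one-out fit (adjusted p 0.0612 to 0.139), and Hpse and Hs3st3b1 passed in 1 each, that without mutant replicate 3. With library totals alone Hs3st3b1 and Papss2 did not pass (edgeR adjusted p = 0.116 and 0.0550). The ameloblast markers were also lower in mutants, by the sums given above, and their part in the differences of these 3 genes, of Pxylp1 and of Gdpd5 was not tested.

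Of 7 shedding and release genes tested, 0 rose and 1 fell. The faller was Gdpd5, whose protein GDE2 cleaves the anchor of glypicans, at 80.2, 79.0 and 68.4 CPM in mutants, against 106, 118 and 128 CPM in controls (log2 fold change -0.63, SE 0.10, edgeR adjusted p = 0.0277). It passed in 1 leave-one-out fit, that without mutant replicate 3 (adjusted p = 0.0437), and its adjusted p was otherwise 0.0621 to 0.119. Notum, which inactivates Wnt proteins, was at 24.4, 28.3 and 29.2 CPM in mutants, against 29.4, 25.3 and 27.3 CPM in controls.

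In 4 further lists 0 genes rose and 0 fell by the edgeR test. For chondroitin sulfate enzymes (14 tested, 3 of them at an unadjusted p under 0.05) the smallest adjusted p were 0.0880 for the sulfotransferase Chst11 (log2 fold change -0.38) and 0.232 for Chst12 (0.28). For proteases linked to testicans (5 tested, 1 at an unadjusted p under 0.05) they were 0.228 for Mmp15 (-0.31) and 0.676 for Mmp16 (0.14), while Mmp14 was at 580, 590 and 535 CPM in mutants, against 574, 584 and 531 CPM in controls. For cytoplasmic partners of syndecans (4 tested, 1 at an unadjusted p under 0.05) they were 0.311 for Sdcbp, which encodes syntenin (0.19), and 0.664 for Prkca (0.17). For ligands that bind heparan sulfate (11 tested, 2 at an unadjusted p under 0.05) they were 0.101 for the chemokine gene Cxcl12 (0.45) and 0.187 for Fgf2 (0.35). Of the genes named in these 4 lists, DESeq2 called Chst11 and Cxcl12, and the fit with library totals alone called Cxcl12.

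**Figure D5:**
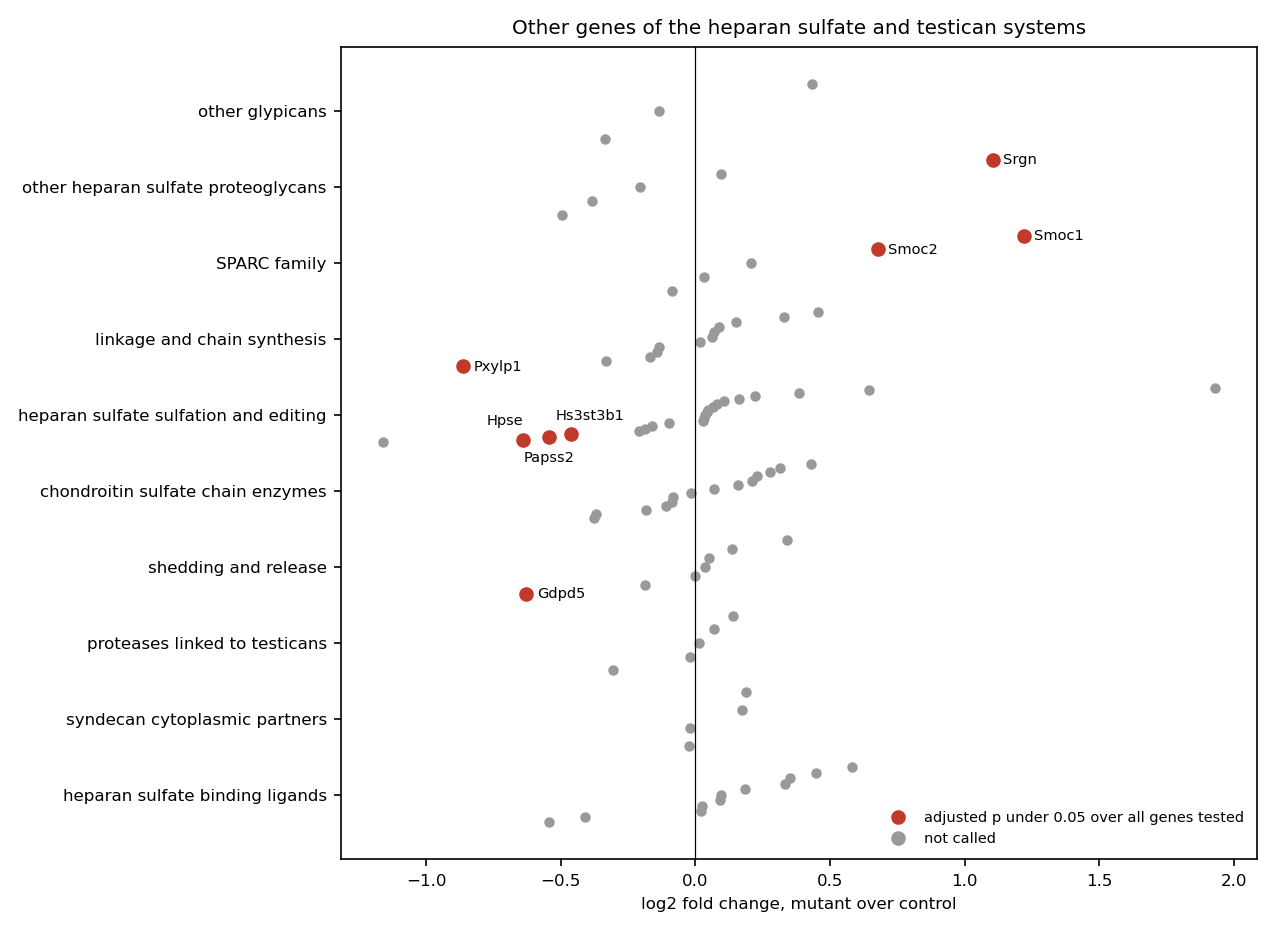
Log2 fold change of mutant over control (x axis) for the tested genes of 10 lists (rows) that hold no members, 1 point per gene, with genes called over all genes tested in red. Srgn, Smoc1 and Smoc2 lie to the right of 0 and Pxylp1, Hpse, Papss2, Hs3st3b1 and Gdpd5 to the left.

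The genes most like Spock1 over the 6 libraries were Pcsk6, Rrm1 and Six2, with Pearson r of log2(CPM + 1) of 0.998, 0.998 and 0.996, the highest of 12108 genes whose mean level reached 5 CPM. Like Spock1 these were higher in mutants, with mean levels of 35.2 CPM in mutants and 23.4 CPM in controls for Pcsk6, 60.5 CPM in mutants and 42.8 CPM in controls for Rrm1, and 24.01 CPM in mutants and 14.6 CPM in controls for Six2. For Sdc3 the most like genes were Smim19, Ust and Rpl37a (r of 0.991, 0.987 and 0.984), and for Gpc1 they included Psmd9 and Ucp2 (r of 0.982 and 0.974). These values describe the same 6 libraries, share their scaling and include the difference between the groups.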

How the data were processed

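RNA was sequenced single-end with 75 cycles. Per the submitters' processing notes, the build was mm10 and the tools named were STAR 2.6.1d and Partek, with no role or order. Strandedness and the annotation used for counting are not given. The authors deposited expected counts (estimated counts, 53.8% of them whole within 0.001) and a normalized signal that equals the expected count plus 1 times 1 factor per library, as tested on the deposited values. Expected counts were rounded, kept by filterByExpr, scaled by TMM and tested with edgeR 4.0.16 in R 4.3.3 (quasi-likelihood F test, Benjamini-Hochberg over all genes tested, called under 0.05). The SE was derived from the fold change and its F value. Alternatives used limma 3.58.1, DESeq2 1.42.0, other scalings and filters, and each library left out. The members and lists were chosen with earlier results of these data known. Named genes were all members, Arid1a, the other glypicans, and in each list the called genes or else the 2 with the smallest p. Gene ends and exon lengths are from GENCODE M21, whose starts match the deposited ones. The fit was tested on simulated data, with the same spread for every gene and changes larger than those of the list genes called here. It therefore does not show how the fit performs at these smaller differences. Pairs of replicates within a group gave chi-square values, summed over genes, of 22.3 to 41.0 for each degree of freedom, far above sampling noise. Genes with very high counts weigh heavily in this sum, such as Amelx at 2248260 and 3841100 counts in control replicates 2 and 5. The values therefore do not describe the spread of a typical gene. For Gpc1, 1 gene of the likeness ranking is not reported here.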

Additional observations from a re-analysis of the deposited data

How the results depend on the processing

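Counts of calls depended on the fit, while Spock1, Spock3, Sdc2, Spock2, Sdc4 and Gpc6 were positive and Sdc3 negative in each fit that held them. With all libraries and TMM, 114 genes were higher and 208 lower in mutants, or 35.4% higher. Library totals alone gave 411 higher and 109 lower (79.0% higher), DESeq2 gave 365 and 504, limma on the normalized table gave 44 and 69, and the replicate block gave 19 and 71. Leaving out 1 library gave 1 to 105 higher and 10 to 138 lower. Of the non-member list genes, 3 were higher and 5 lower in the main comparison. The replicate block gave 0 and 1, library totals alone gave 3 lower, DESeq2 gave 8 lower, limma on the normalized table gave 0 lower, and leaving out 1 library gave 0 to 2 higher and 0 to 4 lower. The cause of these differences was not tested. The leave-one-out fits also held fewer libraries, and the effect of that number was not tested either. The labels speak of 3 pairs of samples without saying which libraries form them. Replicate numbers 3 and 5 occur in both groups, and same-numbered libraries correlated by 0.267 and -0.144 in their deviations, which does not settle whether the numbers mark pairs. Spock3 could not be fitted where 3 libraries had to reach 1 CPM. At 1 to 40 counts a library, the depth limits any statement on Spock3.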
